A study of Mus musculus with 6 samples.

Results

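The gamma-chain family of cytokine receptors was examined in mouse T cells after contact with ovarian cancer cells. The 8 genes are Il2rg, Il2rb, Il2ra, Il15ra, Il4ra, Il7r, Il21r and Il9r. They were taken by gene name from a table of 54532 genes, and all 8 passed the filter on low values (0.5 FPKM or more on average), as did 15874 genes in all. FPKM scale the fragments on a gene by its length and by the size of the library, so that levels of different genes can be set side by side. The T cells were taken from spleens of C57BL/6 mice aged 6 to 8 weeks, were isolated with a pan-T-cell kit, were kept with IL-2 and were activated for 3 days with beads carrying antibodies to CD3 and CD28. They were then co-cultured with ID8, a mouse ovarian cancer cell line. In the cisplatin group (3 libraries) ID8 cells were exposed to cisplatin beforehand (40 µM in the labels). In the control group (3 libraries, named WT in the table) they received PBS. All 6 libraries thus share the added IL-2 and the antibody beads. The labels do not say whether the libraries come from separate mice or cultures, so p-values measure only the spread between these libraries, which may be technical.

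The common gamma chain, encoded by Il2rg, pairs with cytokine-specific chains to form the receptors for IL-2, IL-4, IL-7, IL-9, IL-15 and IL-21. Il2rb encodes the beta chain shared by the IL-2 and IL-15 receptors, and Il2ra (CD25) and Il15ra encode the alpha chains that raise the affinity for each of these cytokines. Binding brings together the kinases JAK1 and JAK3, which phosphorylate STAT factors. In T cells this signalling governs survival, growth and differentiation, and IL-2 itself is known to raise Il2ra transcription through STAT5.

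All 8 genes lie at the coordinates that GENCODE release M21 gives on GRCm38. Il2ra is at chr2:11642807-11693193 on the plus strand and Il15ra at chr2:11705290-11734317, also plus. Il4ra (chr7:125552120-125579474) and Il21r (chr7:125603429-125633570) are neighbours on the plus strand of chromosome 7. Il2rb (chr15:78479256-78495271) and Il7r (chr15:9505788-9530176) are on the minus strand, as are Il2rg (chrX:101264378-101268255) and Il9r (chr11:32187541-32200279). The table's length for each gene was equal to the number of bases its annotated exons cover.

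The family falls into a pair of structural kinds. Type I cytokine receptor chains carry the motif WSXWS (tryptophan, serine, any residue, tryptophan, serine) in the part of the protein outside the cell, whereas Il2ra and Il15ra encode small alpha chains built on sushi domains. A search of the longest coding transcript of each gene in GENCODE M21 found the motif in 6 of 8 genes, all but Il2ra and Il15ra. The 45 bases around the motif are shown because they tell the chains that share this fold apart from the alpha chains, and the 15 bases that encode the motif are in capitals, read 5′ to 3′ on the coding strand. In Il2rg the capitals are chrX:101266215-101266229 in exon 5, in Il2rb chr15:78485763-78485777 in exon 7, in Il4ra chr7:125571554-125571568 in exon 7, in Il7r chr15:9511151-9511165 in exon 5, in Il21r chr7:125628998-125629012 in exon 6 and in Il9r chr11:32193211-32193225 in exon 6, counting exons of that transcript.
Il2rg: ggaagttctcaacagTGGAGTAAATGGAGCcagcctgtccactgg
Il2rb: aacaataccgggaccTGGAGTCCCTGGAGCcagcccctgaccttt
Il4ra: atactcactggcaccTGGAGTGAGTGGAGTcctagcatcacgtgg
Il7r: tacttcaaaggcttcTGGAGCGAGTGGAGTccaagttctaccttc
Il21r: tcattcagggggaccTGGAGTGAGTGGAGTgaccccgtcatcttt
Il9r: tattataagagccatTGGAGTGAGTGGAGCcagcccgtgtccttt
The neighbours Il4ra and Il21r have the same 15 bases, and the 6 genes hold 5 different versions.

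Most of the receptor genes were higher in the cisplatin libraries on the FPKM scale, and they fell into a stronger and a weaker set. Il2rg, Il2ra, Il7r and Il15ra rose by log2 fold changes of 0.61 to 0.79. Il2rb, Il4ra and Il21r rose by 0.15 to 0.22. Set against the mean of T-cell marker genes in the same library these 3 were lower, as were 65.9% of all tested genes. Il9r, at the bottom of the range, gave 0.10 with an interval across 0. Each gene was tested with limma on log2(FPKM + 0.1), with Benjamini-Hochberg adjustment over the 15874 genes. At an adjusted p under 0.05, 7 of 8 members were higher and 0 were lower (also 0 lower at an unadjusted p under 0.05 and by limma's voom on the reads), where 27.5% of all tested genes were higher and 29% were lower. No member reached a fold change of 2, as 4.11% of tested genes did upwards and 12.8% downwards. The members' median log2 fold change was 0.42, beside 0.03 for all tested genes. In bulk RNA, more or fewer cells of a type and more or less RNA per cell cannot be told apart, and this holds for every level below. Summed over 15 markers of the ID8 cells, levels were 1618 to 1699 FPKM in the controls and 239.1 to 245.3 FPKM with cisplatin. How far a smaller share of ID8 RNA raised the FPKM of the receptor genes was not tested.

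**Figure D1:**
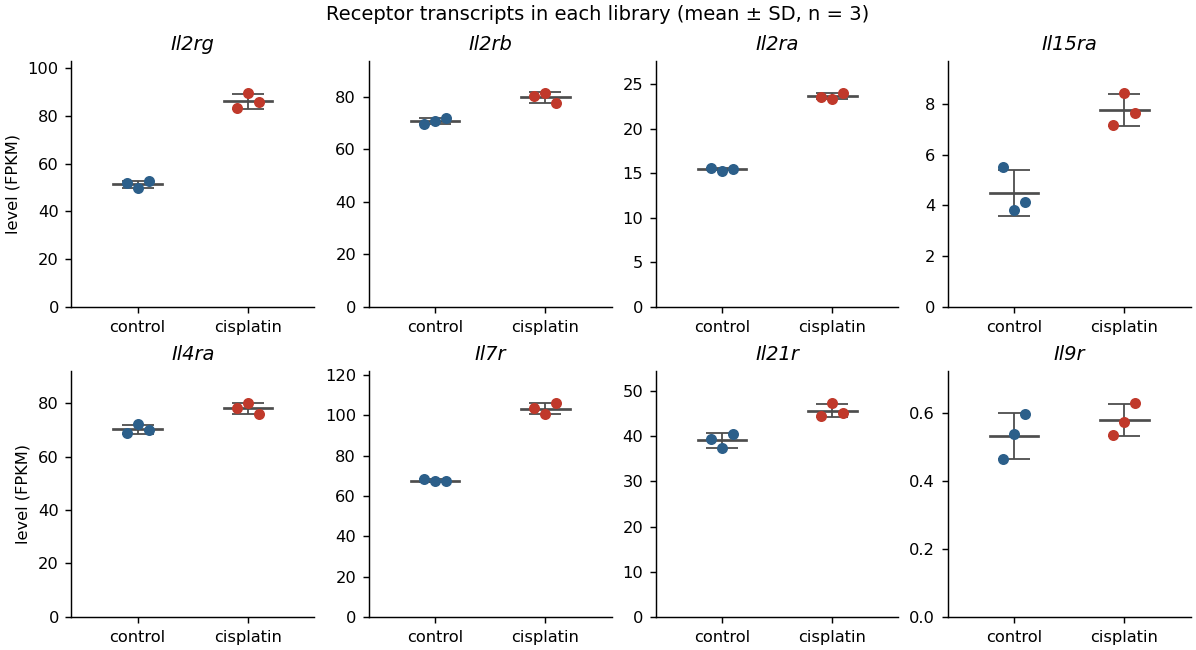
Level of each receptor gene in FPKM (vertical axis, from 0, with its own range in each panel) in the 3 control (blue) and 3 cisplatin (red) libraries; points are libraries in the order of their replicate numbers, and bars give the mean and SD. The groups are separate for every gene but Il9r, and the gap is widest for Il2rg, Il2ra, Il7r and Il15ra.

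The shared chain Il2rg had 51.7, 49.8 and 52.7 FPKM in control libraries 1 to 3 and 83.1, 89.5 and 85.7 FPKM in cisplatin libraries 1 to 3. Every cisplatin library was far above every control library. The means were 51.4 ± 1.502 and 86.1 ± 3.21 FPKM (SD, n = 3), a log2 fold change of 0.74 (SE 0.04, 95% interval 0.65 to 0.84, limma adjusted p = 8.3e-06). This was higher than the change of 90.2% of all tested genes. Il2rg rested on 3561 to 7080 reads per library. A second gene model on the same strand, Gm20489, overlaps Il2rg and held 0 to 7 reads.

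Il2ra had 15.5, 15.3 and 15.5 FPKM in the controls and 23.5, 23.4 and 24.0 FPKM in the cisplatin libraries. The replicates lay close together, and the groups were far apart. The means were 15.4 ± 0.136 and 23.6 ± 0.313 FPKM (SD, n = 3), with a log2 fold change of 0.61 (SE 0.03, 95% interval 0.53 to 0.69, limma adjusted p = 7.6e-06). An unclassified gene model within Il2ra on the same strand, Gm37881, held 35 to 74 reads, against 2617 to 4436 for Il2ra. Il2rb, the signalling partner of Il2ra, had 69.6, 71.0 and 71.8 FPKM in the controls and 80.4, 81.4 and 77.5 FPKM with cisplatin. Its groups did not overlap, but the step was small. The log2 fold change was 0.17 (SE 0.03, 95% interval 0.10 to 0.25, limma adjusted p = 0.0031).

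Il15ra presents IL-15 to cells that carry Il2rb and Il2rg. It was a low-level gene, with 5.51, 3.81 and 4.15 FPKM in the controls and 7.18, 8.42 and 7.65 FPKM in the cisplatin libraries. Control library 1 stood above the other two controls and still below every cisplatin library. The log2 fold change was 0.79 (SE 0.14, 95% interval 0.45 to 1.13, limma adjusted p = 0.0031), the largest point estimate and, after Il9r, the widest interval of the family. Leaving out each library in turn moved it between 0.68 and 0.94, and it passed the test each time.

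Il7r encodes the alpha chain for IL-7, the survival cytokine of resting and memory T cells. It had 68.4, 67.2 and 67.3 FPKM in the controls and 103, 101 and 106 FPKM in the cisplatin libraries. No overlap was seen. Its log2 fold change of 0.61 (SE 0.03, 95% interval 0.54 to 0.68, limma adjusted p = 6.1e-06) was the same to the second decimal as that of Il2ra.

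Il4ra and Il21r, the cytokine-specific chains for IL-4 and IL-21, moved less. Il4ra had 68.8, 72.0 and 70.0 FPKM in the controls and 78.2, 80.0 and 75.9 FPKM with cisplatin, a log2 fold change of 0.15 (SE 0.03, 95% interval 0.07 to 0.23, limma adjusted p = 0.0077) that was 0.23 with FPKM rescaled by the reads on genes. Il21r had 39.3, 37.3 and 40.5 FPKM in the controls and 44.5, 47.3 and 45.03 FPKM with cisplatin, and its log2 fold change was 0.22 (SE 0.04, 95% interval 0.12 to 0.32, limma adjusted p = 0.0038). In both genes the lowest cisplatin library was above the highest control library. A gene model antisense to Il4ra, Gm44876, held 0 to 6 reads, and whether reads were counted by strand is not given in the sources used here.

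Il9r was the lowest member and close to the filter of 0.5 FPKM, with 69 to 101 reads per library. It had 0.465, 0.539 and 0.599 FPKM in the controls and 0.537, 0.573 and 0.630 FPKM with cisplatin, and the groups overlapped. The log2 fold change was 0.10 (SE 0.26, 95% interval -0.51 to 0.72, limma adjusted p = 0.76). A change of the size seen in Il2rg lies just outside this interval and one of the size seen in Il2rb lies well within it. With limma's variance trend left out, the SE was 0.10 (adjusted p = 0.42), so the width of the interval depends on that setting. In 7 of 8 members the groups did not overlap, with cisplatin higher, as was the case for 31.9% of all tested genes.

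**Figure D2:**
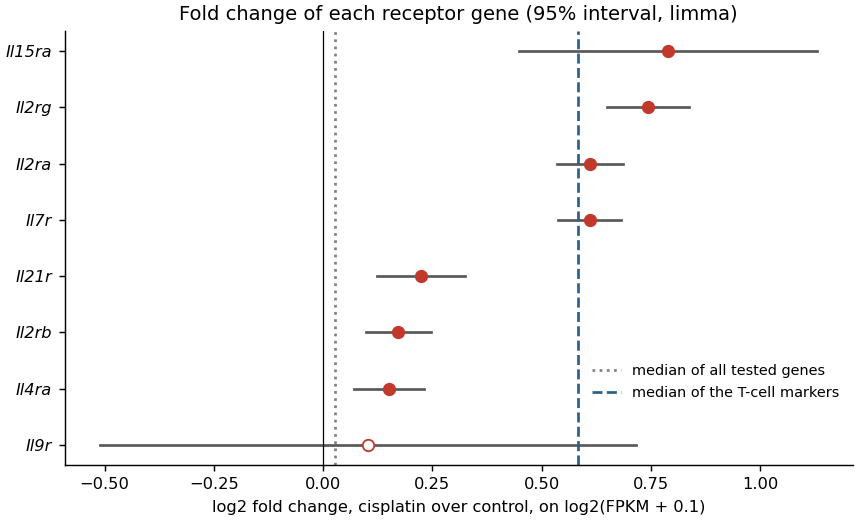
Log2 fold change of each receptor gene, cisplatin over control, on log2(FPKM + 0.1), with its 95% interval from limma; filled points passed an adjusted p of 0.05. The dotted line is the median of all tested genes (0.03) and the dashed line the median of 20 T-cell markers (0.58); the intervals of Il21r, Il2rb and Il4ra lie to the left of the dashed line.

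The order of the receptor genes by level differed between the groups. In the controls, Il2rb (70.8 ± 1.14 FPKM) and Il4ra (70.3 ± 1.66 FPKM) led and overlapped each other, followed by Il7r (67.7 ± 0.674 FPKM), Il2rg, Il21r, Il2ra, Il15ra and Il9r. With cisplatin, Il7r (103.3 ± 2.72 FPKM) came first and Il2rg (86.1 ± 3.21 FPKM) next, above Il2rb (79.8 ± 2.02 FPKM) and Il4ra (78.0 ± 2.05 FPKM), which again overlapped. All other neighbours in either order were separate in every library. Summed over the family, the FPKM were 317 to 322.6 in the controls and 420.9 to 431.1 in the cisplatin libraries. Il2rg made up 16.1% ± 0.337 of that sum in the controls and 20.3% ± 0.507 with cisplatin (SD, n = 3). The share of Il7r was 21.2% ± 0.281 and 24.3% ± 0.909. By contrast, Il2rb had 22.2% ± 0.321 and 18.8% ± 0.383, and Il4ra 21.98% ± 0.647 and 18.4% ± 0.346.

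Ratios within a library do not depend on how libraries are scaled to each other. Set against Il2rg in the same library, Il2rb went from 1.38 times its level in the controls to 0.927 times with cisplatin, and Il4ra from 1.37 to 0.906 times. Both chains were thus above the shared chain in each control library and below it in each cisplatin library. The log2 differences were -0.57 for Il2rb and -0.59 for Il4ra. Il21r went from 0.760 to 0.530 times Il2rg (-0.52) and Il9r from 0.0103 to 0.00673 times (-0.62). Il2ra (-0.13) and Il7r (-0.13) followed Il2rg more closely, and their groups did not overlap. Il15ra against Il2rg differed by 0.06, and its groups overlapped. With 3 libraries against 3, a two-sided exact permutation test cannot go below p = 0.1. The permutation p was 0.1 for 6 of these 7 ratios and 0.8 for Il15ra, so none of the 7 could pass at 0.05.

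**Figure D3:**
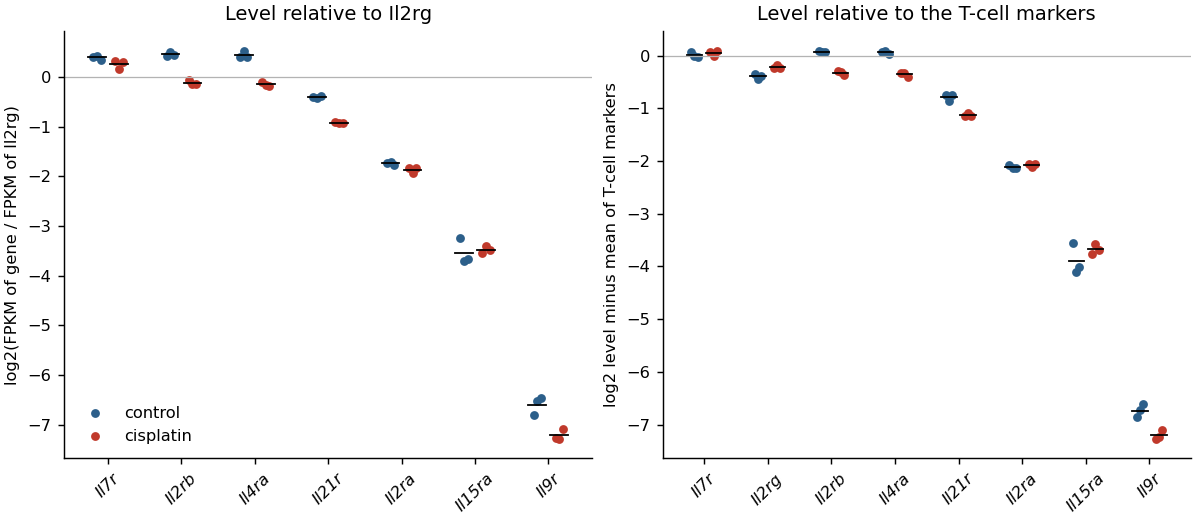
Log2 level of each receptor gene relative to Il2rg (left) and to the mean of 20 T-cell markers (right) in each control (blue) and cisplatin (red) library; bars are group means. Il2rb, Il4ra and Il21r are lower in the cisplatin libraries in both panels, while Il7r and Il2ra overlap between groups on the right.

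Other cell types were visible in the libraries and moved with the groups. For comparison, 27.5% of all tested genes were higher and 29% lower, and 4.78% and 65.9% when libraries were centred on the T-cell markers. The 20 T-cell markers (among them Cd3e, Lck and Trac) all rose on the FPKM scale, with a median log2 fold change of 0.58 (0.01, with 6 higher and 6 lower, when libraries were centred on the same 20 genes) and summed levels of 1639 to 1760 FPKM in controls and 2594 to 2670 FPKM with cisplatin. Markers of the ID8 cells, such as Krt19 and Wt1, fell for 13 of 13 tested genes (median -2.52), and their sum was 1618 to 1699 FPKM in controls and 239.1 to 245.3 FPKM with cisplatin; 2 further markers, Krt7 and Igfbp5, were below the filter. B-cell markers were higher for 9 of 10 genes (median 0.60, summed levels 1668 to 1751 and 3593 to 3671 FPKM, mostly Ighm), with Fcer2a lower, and centred on the T-cell markers 4 were higher and 3 lower. Myeloid markers were higher for 8 of 10 (median 1.44, summed levels 65.7 to 70.0 and 128.4 to 147.5 FPKM), Cd14 was lower and Cd68 did not pass. Among those higher, Adgre1, C1qa and Fcgr1 averaged 0.288, 0.265 and 0.293 FPKM in the controls. They passed the filter of 0.5 FPKM only through the cisplatin libraries, which favours a rise in the count and the median. After that centring 6 myeloid markers were higher and 2, Cd14 and Cd68, were lower (median 0.87). Of 4 tested NK-cell markers 0 passed limma's adjusted test and 1 had an unadjusted p under 0.05 (voom called 2 of 5), with sums of 8.36 to 8.93 and 9.71 to 11.6 FPKM. B cells and myeloid cells can carry Il4ra, Il21r and Il2rg, and the part of these cells in the receptor levels was not tested. No marker of these 5 lists was at 0 in any library.

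Levels were also centred, in each library, on its T-cell markers. This lowers the log2 fold change of every gene by the same amount, so that a gene that rose by less than the markers' mean changes sign. The median of all tested genes moved from 0.03 to -0.54, and 4.78% of genes were higher and 65.9% lower. Of the members, 1 of 8 was higher and 3 of 8 were lower by limma, and their median was -0.16. Il2rg stayed higher, with a log2 difference of 0.17 (SE 0.04, limma adjusted p = 0.0052). Il2ra (0.04, adjusted p = 0.42) and Il7r (0.04, adjusted p = 0.42) kept step with the mean of the markers, and Il15ra (0.22, adjusted p = 0.23) did not pass.

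Lower than the mean of the markers were Il2rb (-0.40, limma adjusted p = 3.0e-05), Il4ra (-0.42, adjusted p = 3.3e-05) and Il21r (-0.35, adjusted p = 2.3e-04). Each was above the all-gene median of -0.54. Of the 20 markers themselves, 6 were higher and 6 lower by this centring. One marker, Cd3g, rose by 0.19 on the FPKM scale, less than Il21r (0.22). Il2rb was at 1.05 to 1.06 times the mean T-cell marker level in the controls and at 0.772 to 0.816 times with cisplatin. For Il4ra the corresponding values were 1.02 to 1.07 and 0.756 to 0.794 times, and for Il21r 0.554 to 0.599 and 0.449 to 0.467 times. The Il9r difference was -0.47 and did not pass (adjusted p = 0.15). An exact two-sided permutation test gave its smallest possible value, p = 0.1, for Il2rb, Il2rg, Il4ra, Il21r and Il9r, and 0.2 to 0.4 for the other 3.

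Of the ligands, only Il15 and Il4 passed the filter on low values. Il15 had 1.49, 1.09 and 1.17 FPKM in the controls and 1.83, 1.74 and 2.13 FPKM with cisplatin, a log2 fold change of 0.57 (limma adjusted p = 0.021) that was 0.0008 when centred on T-cell markers. Il4 had -0.32 (adjusted p = 0.53). Il2 held 1, 1 and 7 reads in the controls and 10, 8 and 14 with cisplatin, Il7 had 3 to 12 and 10 to 35 reads, and Il21 had 43 to 66 and 73 to 125 reads. Il9 was at 0 reads in every library. With voom on the reads, Il15 (0.69) and Il21 (0.81, adjusted p = 0.020) were higher, while Il7 (1.25, adjusted p = 0.12) and Il4 did not pass. The IL-2 protein added to the medium is not seen by sequencing.

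Some chains outside the family pair with its members. Crlf2, which joins the Il7r chain to bind TSLP, had 39.4, 40.1 and 37.6 FPKM in the controls and 45.8, 46.0 and 42.7 FPKM with cisplatin, a log2 fold change of 0.20 (limma adjusted p = 0.0074) that became -0.37 when centred on T-cell markers. Il13ra1, which joins the Il4ra chain in a receptor for IL-4 and IL-13 known mainly from non-haematopoietic and myeloid cells, had 23.9, 22.3 and 22.7 FPKM in the controls and 3.61, 3.88 and 3.76 FPKM with cisplatin. This fall of 2.58 on the log2 scale (limma adjusted p = 1.5e-07) was of the size seen for ID8 markers, and Il13ra1 was below Il4ra in every library. The decoy receptor Il13ra2 fell by 1.83 (adjusted p = 0.011), from 1.42 ± 0.204 to 0.374 ± 0.267 FPKM (SD, n = 3). The share of Il4ra or of any other member that came from ID8 cells was not tested.

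Downstream of the receptors, 2 of 6 kinases and STAT factors were higher and 2 were lower, and 0 were higher and 5 lower when centred on the T-cell markers. The shares of all tested genes were 27.5% higher and 29% lower, and 4.78% and 65.9% when centred, so with 6 genes nothing is read from these counts. Stat5a, the main STAT of IL-2 and IL-7 along with Stat5b, had 12.5, 12.7 and 11.5 FPKM in the controls and 19.0, 18.4 and 18.9 FPKM with cisplatin. Its log2 fold change was 0.61 (limma adjusted p = 6.0e-05), and 0.04 after centring on T-cell markers. Stat5b rose by 0.30 (adjusted p = 5.3e-04) and was lower by that centring (-0.27). Jak3, the kinase bound by the shared chain, ranged from 111 to 121 FPKM in the controls (116.6 ± 4.83) and from 99.0 to 102 FPKM with cisplatin (100.3 ± 1.40, SD, n = 3). It fell by 0.22 (limma adjusted p = 0.0025), and by 0.13 both with FPKM rescaled by the reads on genes (adjusted p = 0.021) and with voom (adjusted p = 4.7e-04). Stat3, used by IL-21, fell by 0.14 (adjusted p = 0.0125), a call lost with quantile normalization (-0.08, adjusted p = 0.089) and with voom on the reads (-0.06, adjusted p = 0.11). Jak1 (-0.04) and the IL-4 factor Stat6 (-0.02) did not pass.

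Genes known to respond to IL-2 and STAT5 were higher for 8 of 13 and lower for 2 of 13, with a median of 0.19. Of all tested genes 27.5% were higher and 29% lower, with a median of 0.03. When centred on the T-cell markers the median was -0.38, beside -0.54 for all tested genes. By that centring 2 of 13 were higher and 7 of 13 lower, where 4.78% of all tested genes were higher and 65.9% lower. The kinase gene Pim2 had 40.7, 42.0 and 44.9 FPKM in the controls and 73.7, 74.7 and 71.9 FPKM with cisplatin (0.79, limma adjusted p = 9.7e-06). Osm, which encodes the cytokine oncostatin M, rose by 0.90 (adjusted p = 2.8e-04). The feedback inhibitors Socs1 (0.46) and Socs2 (0.51), the cytokine gene Lta (0.51), Prdm1 (0.40), Pim1 (0.19) and Myc (0.17) rose as well, whereas Socs3 (-0.20) and the cyclin gene Ccnd2 (-0.29) fell. Cish (0.15, adjusted p = 0.063), a direct STAT5 target, Bcl2 (0.11) and Gzmb (0.09) did not pass, though with voom on the reads all 3 were higher (0.18 to 0.23). The 2 that were higher after centring were Pim2 (0.22) and Osm (0.33), while Cish, Bcl2, Gzmb, Pim1, Myc, Socs3 and Ccnd2 were lower.

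**Figure D4:**
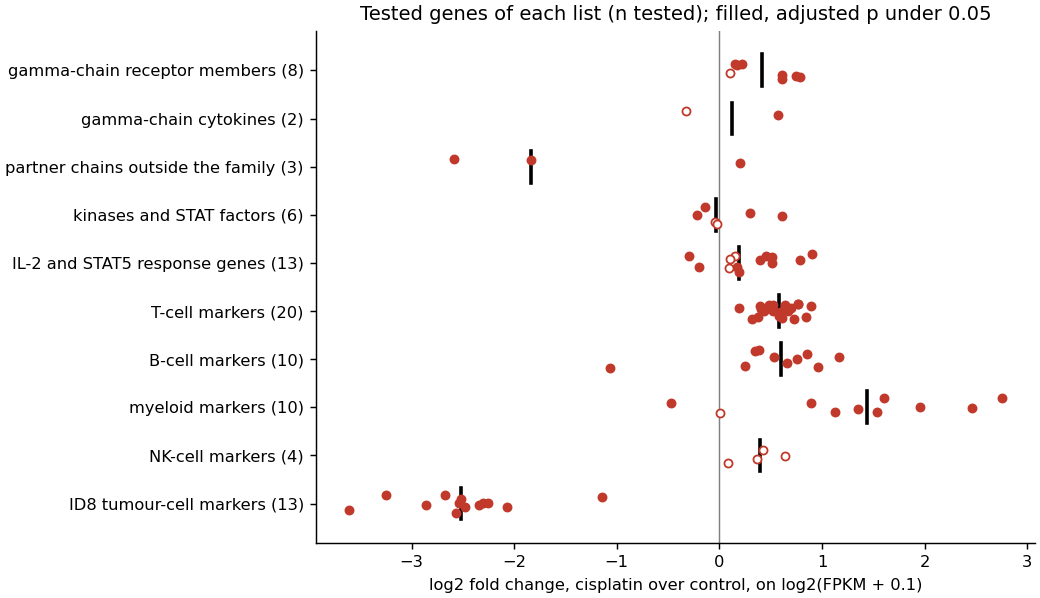
Log2 fold change, cisplatin over control, of each tested gene by list, on log2(FPKM + 0.1); filled points passed limma's adjusted p of 0.05, black bars are list medians and the number tested is in brackets. The receptor genes lie between 0.10 and 0.79, the T-cell markers between 0.19 and 0.89 and the ID8 markers between -3.61 and -1.15.

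RefSeq promoter windows (GRCm38.p6, 250 bases before to 50 after the start) were at hand for 7 of 8 members, all but Il2rb. They were searched on both strands for TTC and GAA set 3 bases apart (the spacing STAT5 binds) or 4 bases apart (STAT6), and for GGGA and CC set 4 bases apart, part of the NF-κB consensus. The STAT5 spacing was in the Il7r window alone, at -142 from the RefSeq start, and in 8.3% of all 32851 windows. The Il7r window (chr15:9529827-9530126) lies within the GENCODE span of the gene given above. Its RefSeq start is thus downstream of the GENCODE 5′ end, and the match is upstream of the RefSeq start only. The NF-κB letters were in the windows of Il2ra and Il21r, at -201 and -231, and in 20.7% of all windows, and the STAT6 spacing was in 0 of the 7 and in 6.95% of all. The stretches of Il2ra (chr2:11642551-11642640, plus strand) and Il7r (chr15:9529970-9530058, minus strand) are shown because these genes had the same fold change and hold different motifs, in capitals, 5′ to 3′ on the gene's strand.
Il2ra: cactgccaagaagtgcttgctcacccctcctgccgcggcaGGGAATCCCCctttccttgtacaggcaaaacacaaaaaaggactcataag
Il7r: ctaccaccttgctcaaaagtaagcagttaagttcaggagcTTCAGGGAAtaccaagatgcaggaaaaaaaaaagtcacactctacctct
Such a match is a string of letters and not a measured binding site.

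For the called members of largest and smallest change, Il15ra and Il4ra, genes with the most similar levels were sought. The search covered 8421 genes averaging 5 FPKM or more. Across the 6 libraries, Il15ra was closest to Wdr3 (Pearson r = 0.997), Kifc1 (r = 0.997) and Xlr4b (r = 0.995), and Il4ra to Ighv1-72 (r = 0.997), Rps15 (r = 0.996) and Scly (r = 0.996). The points fall into the 2 groups, and 1371 and 1651 genes had r above 0.9, so that a high r was common. How many genes came as close as those named was not counted.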

How the data were processed

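The authors deposited FPKM for 6 T-cell libraries from poly-A RNA. The study's methods name LifeScope for alignment, counting and length normalization, and the submitters' processing notes name fastp, HISAT2 2.0.5, featureCounts 1.5.0-p3 and mm10; strand and multi-mapping settings are not given in the sources used here. The deposited gene length was used as given. Groups and replicate numbers came from the sample labels. FPKM times length was a whole multiple of a step (within 0.1 of a read) for 100% of values, which gave reads per gene, 30606569 to 32169496 per library. The factor behind the FPKM was 1.03 to 1.05 times these reads in cisplatin and 0.976 to 0.982 times in control libraries. No replicates were identical (chi-square per degree of freedom 5.11 to 5.99).

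Tests used limma 3.58.1 (R 4.3.3; lmFit, eBayes with trend = TRUE) on log2(FPKM + 0.1) over 15874 genes averaging 0.5 FPKM or more, and two-sided exact permutation tests of within-library ratios (scipy 1.17.1, python 3.11.15), with p-values not adjusted over the family. The pseudocount makes fold changes of low genes too small. The script was tested on simulated data. Alternatives were other pseudocounts, filters, scalings, voom on rebuilt reads (at least 10 reads in 3 libraries), no variance trend, a replicate block and leaving out each library. The members and gene lists were chosen with earlier results of these data known. Named were all 8 members, genes of the lists, and the 3 genes most correlated with the called members of largest and smallest change; Gm20489, Gm37881 and Gm44876 were named as overlapping gene models.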

Additional observations from a re-analysis of the deposited data

How the results depend on the processing

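Under 10 of 11 other settings and each left-out library, 7 members were higher and 0 lower, with Il9r below the filter at a mean of 5 FPKM; outside the T-cell centring, log2 fold changes ran from 0.68 to 0.95 for Il15ra, 0.72 to 0.83 for Il2rg, 0.58 to 0.70 for Il2ra, 0.59 to 0.69 for Il7r, 0.19 to 0.31 for Il21r, 0.16 to 0.26 for Il2rb, 0.13 to 0.23 for Il4ra and 0.02 to 0.27 for Il9r. Centred on the T-cell markers, 1 member was higher and 3 lower, with Il2rb at -0.40, Il4ra at -0.42, Il21r at -0.35 and Il9r at -0.47 reversed and Il2ra (0.038), Il7r (0.038) and Il15ra (0.22) no longer past the threshold; this centring lowers every gene by the same amount. Over all tested genes, 4360 were higher and 4603 lower (653 and 2034 at a fold of 2). That centring gave 758 and 10464 (141 and 3727), quantile normalization 5884 and 3841 (all-gene median 0.16), and a mean of 5 FPKM 3156 and 2893 (242 and 903, fewer genes tested). A pseudocount of 1 gave 311 higher at a fold of 2 and a pseudocount of 0.01 gave 699, as a larger pseudocount shrinks the fold changes of low genes. Voom gave 1127 higher at a fold of 2, and the cause was not tested. Median-of-ratios scaling gave 4361 higher and 4603 lower, nearly the main counts, so it adds little as a separate setting. Leaving out each library gave 3773 to 3988 higher, 4180 to 4411 lower, and at a fold of 2, 570 to 693 and 1907 to 2083.

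Without control replicate 2 or 3, Il15ra relative to Il2rg reversed to -0.028 and -0.0081, and without control replicate 1 it was 0.21; the value with all libraries had not passed. The replicate numbers did not pair the libraries: same-number deviations correlated at 0.02, -0.06 and -0.02, and with the replicate block 7 members were still higher (4147 genes higher and 4417 lower). Depth limits Il9r and the cytokine genes most.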
